A study of Aspergillus nidulans with 12 samples.

Results

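The expression of 6 genes of *Aspergillus nidulans* that build the colour and the water-repellent surface of asexual spores and spore heads was followed through RNA sequencing of submerged mycelia. They were taken by their gene identifiers, whatever their values: *wA* (AN8209), *yA* (AN6635), *rodA* (AN8803), *dewA* (AN8006), *ivoA* (AN10576) and *ivoB* (AN0231), which makes 6 of the 10988 genes of the deposited table. The reference strain THS30 carries *pyrG89* and *pyroA4*, with *AfupyrG*+ and *pyroA*+ as the markers that restore them. The mutant TNJ92 has the same *pyrG89*, *AfupyrG*+ and *pyroA4* background, and its *pyroA* marker replaces *atfA*, so that both strains carry the auxotrophic alleles and each strain stands for 1 genotype. Cultures were grown at 37 °C for 16 h, some received CdCl2 to 0.2 mM, and all mycelia were collected 0.5 h later. Untreated and CdCl2-treated cultures of both strains had 3 biological replicates each, 12 libraries in all. The comparisons ask how these genes depend on CdCl2, on AtfA, a bZIP transcription factor of the stress MAPK pathway, and on both together.

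Conidia of this fungus are green because a polyketide made by the *wA* synthase is turned from a yellow intermediate into the green wall pigment by the *yA* laccase. Mutants without *wA* have white conidia and mutants without *yA* yellow ones. The stalks and the cells that bear the conidia hold another, brown pigment, made from a tryptophan derivative through the *ivoA* peptide synthetase and the *ivoB* phenol oxidase. The conidium is covered by rodlets of the hydrophobin RodA, with DewA as a further wall hydrophobin. Asexual development runs through the regulators *brlA*, *abaA* and *wetA*, and is largely suppressed in shaken liquid culture.

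Library totals ran from 8721119 to 13641031 counts. The deleted gene was checked first. *atfA* (AN2911) had 301 to 357 CPM (read counts set to a common library size with TMM scaling) in untreated THS30 and 232 to 242 CPM in CdCl2-treated THS30, against 26.1 to 27.4 and 17.3 to 25.4 CPM in TNJ92, so that every library matched its strain label while some reads at the locus remained in the mutant. Untreated TNJ92 replicates 1 and 3 lay far apart for *rodA* and *ivoB*, and results that rest on either are given with and without it. Differences were tested with edgeR over the 9070 genes that passed a filter on low counts, and a gene is called higher or lower at a Benjamini-Hochberg adjusted p under 0.05. Changes are relative to the TMM scaling, which holds the median gene near 0. Scaling by library totals raised the median log2 fold change of all genes to 0.13 in the CdCl2 response of THS30, to 0.15 in that of TNJ92 and to 0.15 in the mean of both. It turned the split of higher and lower genes from 2037 and 1948 to 2776 and 1347 in THS30, from 2568 and 2554 to 3307 and 1833 in TNJ92, and from 2824 and 2679 to 3722 and 1871 in the mean response.

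The 6 genes ran from the lower part of the range of all genes to just above its middle. Their summed raw counts were 26.1 to 94.3 CPM of the unscaled library totals. On the RPKM scale, which corrects for transcript length, *rodA* had the highest mean level over the 12 libraries at 17.1 RPKM, with a range of 2.15 to 71.4. It was followed by *ivoB* at 11.3 RPKM (5.41 to 19.8) and *yA* at 7.16 RPKM (4.38 to 10.6). The order of these 3 was not fixed, since *rodA* exceeded *ivoB* in 5 of 12 libraries and *ivoB* exceeded *yA* in 9 of 12. *wA* had 1.37 RPKM (0.686 to 2.34), below *yA* in 12 of 12 libraries by 3.04-fold to 9.66-fold. *dewA* with 0.346 RPKM (0 to 0.741) and *ivoA* with 0.312 RPKM (0.164 to 0.494) were lowest and changed places between libraries, *dewA* being the higher of the pair in 7 of 12. Among all genes of the table, the mean RPKM of *rodA* stood at percentile 56.2, that of *ivoB* at 47.6, that of *yA* at 39.9, that of *wA* at 23.6, that of *dewA* at 14.9 and that of *ivoA* at 14.5. Both enzymes of the brown pigment thus lay far apart, with the oxidase gene well above the synthetase gene.

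The 2 mycelial genes set beside them, actin *actA* (AN6542) and glyceraldehyde-3-phosphate dehydrogenase *gpdA* (AN8041), had mean levels of 1304 and 4807 RPKM. The central regulators of development were close to the level of *wA*, with 1.69 RPKM for *brlA* (AN0973), 1.10 for *abaA* (AN0422) and 2.44 for *wetA* (AN1937). The summed level of 5 markers of conidiophores and conidia (*brlA*, *abaA*, *wetA*, *vosA* and *catA*) was 26.6 to 27.6 RPKM in untreated THS30, 25.3 to 29.2 in CdCl2-treated THS30, 11.9 to 13.7 in untreated TNJ92 and 16.4 to 19.6 in CdCl2-treated TNJ92. The 5 markers did not fall together, and *catA* held most of the lower sum, with means of 11.5 RPKM in untreated THS30 against 0.051 in untreated TNJ92 and of 6.89 against 0.196 with CdCl2. *wetA* had 3.69 against 1.31 RPKM untreated and 3.29 against 1.47 with CdCl2. *vosA* had 10.01 against 9.81 RPKM untreated and 12.7 against 13.3 with CdCl2, and neither *vosA*, *abaA* nor *brlA* was called between the strains in either condition. With AN8333, a gene given by ID that had been set down as the 6th marker, the sums were 91.0 to 103, 98.4 to 121, 35.4 to 36.7 and 49.7 to 57.1 RPKM. The summed level of *actA*, *gpdA* and AN1182, set down as 3 mycelial markers, was 6067 to 7479 RPKM over the 12 libraries. The markers set down for the labelled tissue, mycelium, were thus abundant. The series held no library of conidiophores or conidia to set beside them, so these levels do not identify the tissue. In bulk RNA, fewer cells of a type and less RNA per cell cannot be told apart.

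**Figure D1:**
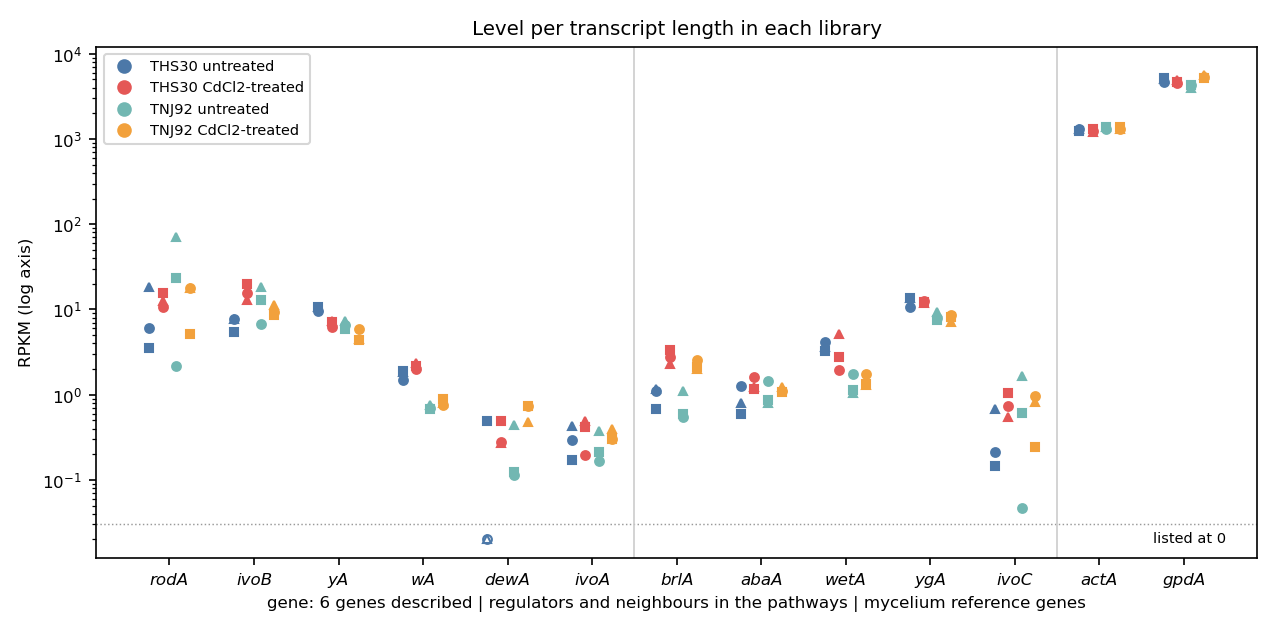
Level per transcript length (RPKM, log axis) of the 6 genes, of regulators and pathway partners, and of 2 mycelial genes, with 1 symbol per library, coloured by group. The 6 genes lie between 0 and 71.4 RPKM, and *actA* and *gpdA* have means of 1304 and 4807 RPKM.

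The first gene of the green pigment, *wA*, was lower in the mutant whatever the treatment. Its levels in untreated THS30 were 10.2, 13.4 and 12.98 CPM in replicates 1 to 3, and in CdCl2-treated THS30 12.7, 13.8 and 15.5 CPM. In untreated TNJ92 they were 4.85, 4.82 and 5.18 CPM, and in CdCl2-treated TNJ92 4.53, 5.65 and 5.11 CPM. All 6 mutant libraries lay below all 6 reference libraries, and within each strain treated and untreated libraries overlapped. The raw counts behind these levels were 86 to 175 per THS30 library and 55 to 74 per TNJ92 library. *wA* was 2.47-fold lower in untreated TNJ92 (log2 fold change -1.31 ± 0.15 SE, 95% interval -1.63 to -0.98, edgeR adjusted p = 1.4e-06) and 2.74-fold lower in CdCl2-treated TNJ92 (-1.46 ± 0.15, -1.77 to -1.14, adjusted p = 3.2e-07). CdCl2 left it without a call in THS30, where the log2 fold change was 0.19 ± 0.14 (-0.11 to 0.49, edgeR adjusted p = 0.290), and in TNJ92, where it was 0.04 ± 0.16 (-0.31 to 0.39, edgeR adjusted p = 0.858). The interval for THS30 leaves room for a rise of up to 1.40-fold. The difference between the strains' responses was -0.15 ± 0.22 on the log2 scale (-0.61 to 0.31, edgeR adjusted p = 0.658).

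*yA*, the laccase gene of the green pigment, was lower both in the mutant and after CdCl2. It had 18.4, 20.9 and 21.2 CPM in untreated THS30 and 10.9, 12.7 and 13.7 CPM in CdCl2-treated THS30. It had 12.8, 11.6 and 14.1 CPM in untreated TNJ92 and 10.03, 7.79 and 8.03 CPM in CdCl2-treated TNJ92. Untreated THS30 was above every other library, CdCl2-treated TNJ92 was below every other library, and the 2 groups between them overlapped. CdCl2 lowered *yA* 1.63-fold in THS30 (log2 fold change -0.70 ± 0.14 SE, 95% interval -0.99 to -0.42, edgeR adjusted p = 0.000551) and 1.49-fold in TNJ92 (-0.58 ± 0.14, -0.87 to -0.28, adjusted p = 0.00232). In TNJ92 it was 1.57-fold lower than in THS30 without treatment (-0.65 ± 0.14, -0.94 to -0.37, edgeR adjusted p = 0.000492) and 1.44-fold lower with CdCl2 (-0.53 ± 0.14, -0.83 to -0.22, adjusted p = 0.00496). The responses of the strains differed by 0.13 ± 0.20 on the log2 scale (-0.29 to 0.55, edgeR adjusted p = 0.682), which does not pass the threshold. With both conditions averaged, TNJ92 had 1.51-fold less *yA* and 2.60-fold less *wA* than THS30 (log2 fold changes -0.59 ± 0.10 and -1.38 ± 0.11).

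The balance of the 2 green pigment genes moved with the treatment in both strains. The ratio of *yA* to *wA* counts was 1.80, 1.56 and 1.64 in untreated THS30 and 0.856, 0.920 and 0.884 after CdCl2. In TNJ92 it was 2.64, 2.40 and 2.72 without treatment and 2.21, 1.38 and 1.57 with CdCl2. In each strain every treated library had a lower ratio than every untreated one, and these ratios of raw counts do not depend on how libraries are scaled. The ratio itself was not tested.

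**Figure D2:**
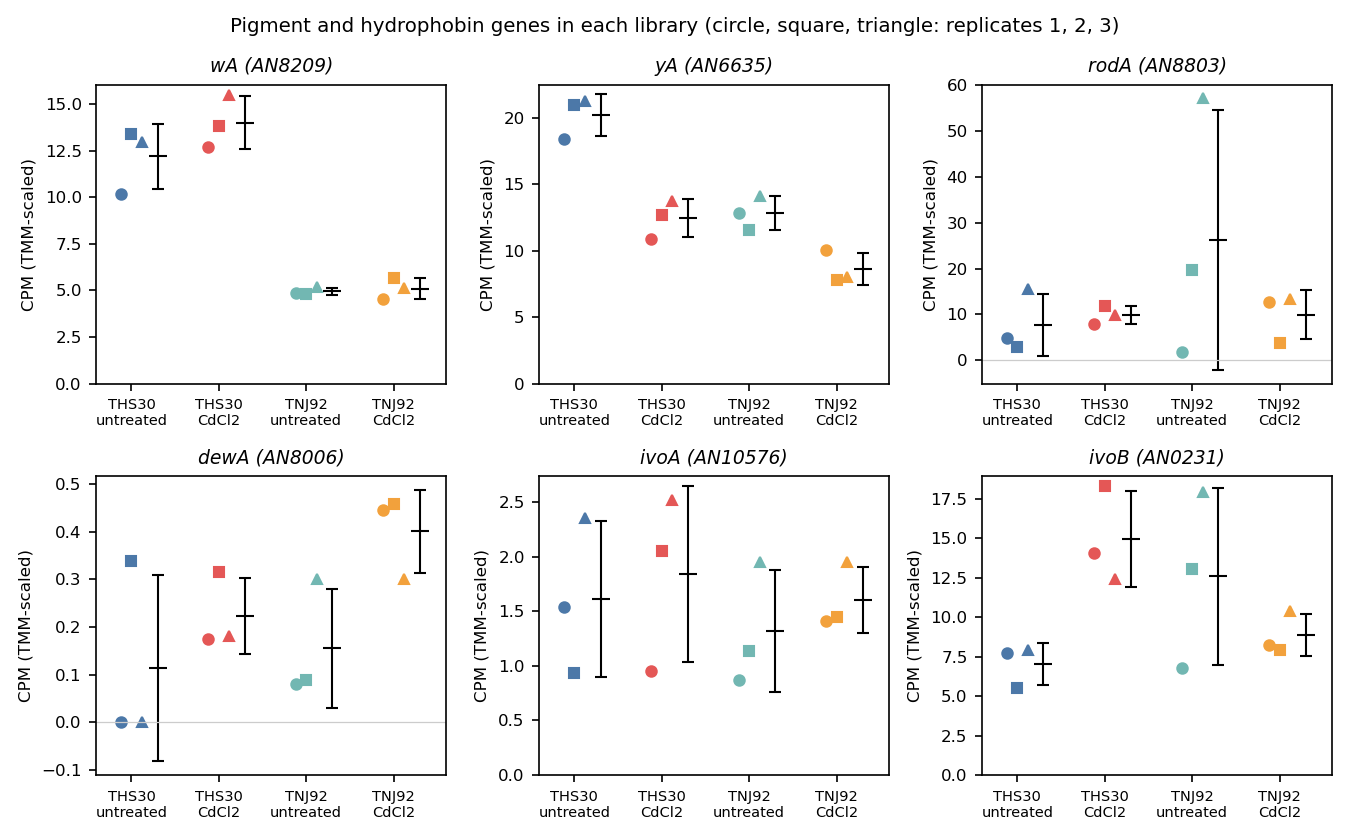
CPM (TMM-scaled) of each of the 6 genes by group, with circles, squares and triangles for replicates 1, 2 and 3 and, in black, the mean with its SD. *wA* sits at 4.53 to 5.65 CPM in the 6 TNJ92 libraries and at 10.2 to 15.5 CPM in the 6 THS30 libraries, while *rodA* spans 1.75 to 57.1 CPM within untreated TNJ92 alone.

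Of the brown pigment genes, *ivoB* responded to CdCl2 in THS30 and not in the same way in TNJ92. The phenol oxidase gene had 7.71, 5.51 and 7.90 CPM in untreated THS30 and 14.1, 18.3 and 12.4 CPM in CdCl2-treated THS30, and these groups did not overlap. In untreated TNJ92 it had 6.76, 13.1 and 17.9 CPM, and in CdCl2-treated TNJ92 8.25, 7.94 and 10.4 CPM. The untreated mutant libraries thus spread over a wider range than any other group and enclosed the treated ones. CdCl2 raised *ivoB* 2.14-fold in THS30 (log2 fold change 1.10 ± 0.30 SE, 95% interval 0.45 to 1.75, edgeR adjusted p = 0.00997). In TNJ92 the log2 fold change was -0.51 ± 0.29 (-1.13 to 0.11, edgeR adjusted p = 0.146), which does not pass the threshold. The difference between the responses was itself past the threshold, at -1.61 ± 0.41 on the log2 scale (-2.51 to -0.71, edgeR adjusted p = 0.0125).

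The same pattern read across strains had *ivoB* 1.80-fold higher in untreated TNJ92 (log2 fold change 0.85 ± 0.30, 95% interval 0.20 to 1.503, edgeR adjusted p = 0.0266) and 1.69-fold lower in CdCl2-treated TNJ92 (-0.76 ± 0.28, -1.37 to -0.14, adjusted p = 0.0375). Averaged over both conditions the strain difference was 0.05 ± 0.21 (-0.40 to 0.49, edgeR adjusted p = 0.853). Untreated TNJ92 replicate 3 had the highest *ivoB* level of its group and replicate 1 the lowest. Without replicate 3, the untreated strain difference was 0.50 (adjusted p = 0.116), and the difference between the responses was -1.25 (adjusted p = 0.0125). Without replicate 1 of the same group, *ivoB* was called lower after CdCl2 in TNJ92, at -0.81 (edgeR adjusted p = 0.00246). With each library left out in turn, this response ranged from -0.81 to -0.16, with adjusted p values up to 0.62 over the alternatives. The call between the untreated strains was also lost without untreated THS30 replicate 1 (0.92, adjusted p = 0.0513) or 2 (0.69, 0.103) and without untreated TNJ92 replicate 2 (0.83, 0.0610). The call between the treated strains was lost without untreated THS30 replicate 1 (-0.76, adjusted p = 0.0550), CdCl2-treated THS30 replicate 1 (-0.80, 0.0649) or 2 (-0.58, 0.139), or CdCl2-treated TNJ92 replicate 1 (-0.71, 0.105) or 2 (-0.68, 0.112). The rise in THS30 and the difference between the responses were called with any 1 library left out.

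*ivoA*, the peptide synthetase gene at the head of the brown pigment pathway, had too few reads for a fine comparison. Its raw counts were 13, 11 and 26 in untreated THS30, 11, 26 and 28 in CdCl2-treated THS30, 11, 13 and 26 in untreated TNJ92 and 19, 19 and 26 in CdCl2-treated TNJ92. These were 0.933 to 2.36, 0.956 to 2.52, 0.875 to 1.95 and 1.41 to 1.95 CPM, and all 4 groups overlapped. No comparison called it. The log2 fold changes were 0.20 ± 0.39 for CdCl2 in THS30 (95% interval -0.63 to 1.02) and 0.26 ± 0.39 in TNJ92 (-0.56 to 1.09). Between strains they were -0.26 ± 0.41 untreated (-1.13 to 0.60) and -0.20 ± 0.37 with CdCl2 (-0.99 to 0.59). A rise of *ivoA* as large as that of *ivoB* in THS30 was just outside the interval there. Rises up to 1.02 and falls down to -0.63 on the log2 scale lay within it.

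*rodA*, the gene of the rodlet hydrophobin, was set apart by its spread. It had 4.86, 2.88 and 15.4 CPM in untreated THS30 and 7.99, 11.8 and 9.91 CPM in CdCl2-treated THS30. In untreated TNJ92 it had 1.75, 19.6 and 57.1 CPM, from 22, 224 and 761 raw counts, and in CdCl2-treated TNJ92 12.6, 3.82 and 13.4 CPM. The 3 untreated mutant cultures thus held both the lowest and the highest library of the series, 32.6-fold apart, and all 4 groups overlapped. The SD of *rodA* within groups was 1.48 on the log2 CPM scale, at percentile 99.99 of the 9070 genes tested, whose median SD was 0.16. For *wA* and *yA* it was 0.15 and 0.16, for *ivoB* 0.42 and for *ivoA* 0.53.

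With such a spread no comparison called *rodA*. The log2 fold changes were 0.35 ± 1.11 SE for CdCl2 in THS30 (95% interval -2.19 to 2.88, edgeR adjusted p = 0.828) and -1.40 ± 0.99 in TNJ92 (-3.67 to 0.87, adjusted p = 0.263). Between strains they were 1.75 ± 1.04 untreated (-0.64 to 4.14, edgeR adjusted p = 0.178) and 0.01 ± 1.05 with CdCl2 (-2.41 to 2.42, adjusted p = 0.996). Without untreated TNJ92 replicate 1, the untreated strain difference was 2.31 and was called (edgeR adjusted p = 0.0331). Without replicate 3 it was 0.43 (adjusted p = 0.733), and the CdCl2 response in TNJ92 was -0.08 (0.953). The size of each *rodA* difference in the mutant rested on single libraries.

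*dewA*, the other hydrophobin gene, was close to the limit of detection and did not pass the filter, so that 5 of the 6 genes were tested. Its counts were 0, 4 and 0 in untreated THS30, 2, 4 and 2 in CdCl2-treated THS30, 1, 1 and 4 in untreated TNJ92 and 6, 6 and 4 in CdCl2-treated TNJ92, 34 reads in all. Pooled over the 3 libraries of a group this was 0.128 CPM in untreated THS30 (exact Poisson 95% interval 0.035 to 0.328), 0.227 CPM in CdCl2-treated THS30 (0.098 to 0.447), 0.161 CPM in untreated TNJ92 (0.059 to 0.350) and 0.401 CPM in CdCl2-treated TNJ92 (0.229 to 0.652). These intervals cover counting error only and overlap between all groups. A count of 0 allows up to 3 counts, or 0.356 CPM in untreated THS30 replicate 1 and 0.272 CPM in replicate 3. Fitted without the filter, *dewA* had a log2 fold change of 0.99 ± 0.60 for CdCl2 over both strains (edgeR adjusted p = 0.181 over 10749 genes), so that no difference was detectable.

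**Figure D3:**
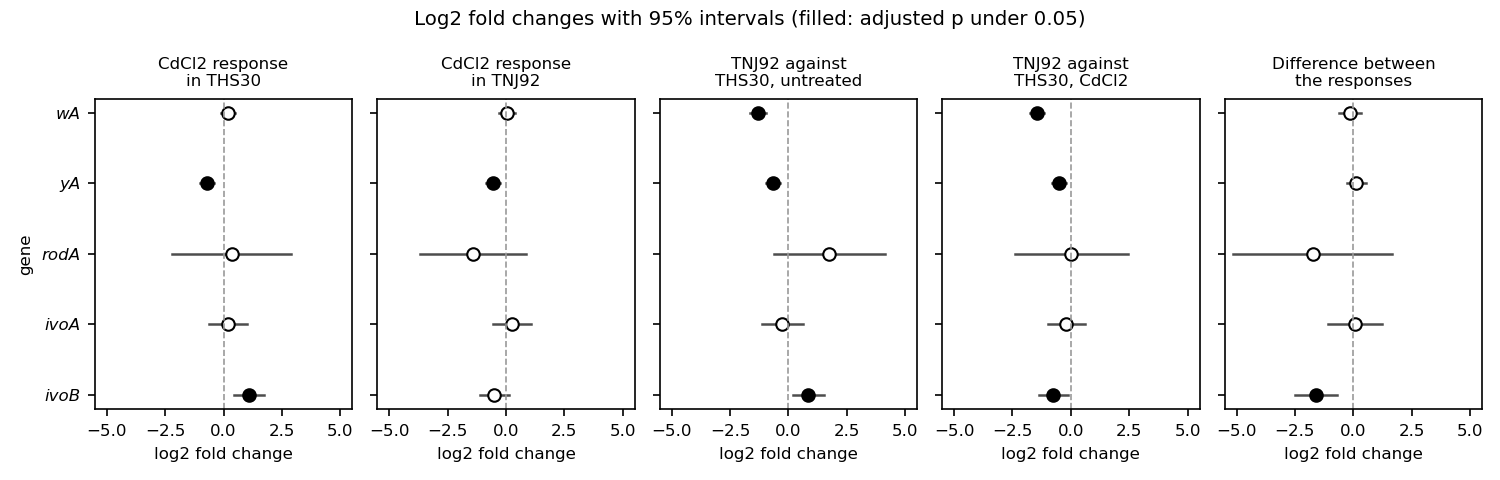
Log2 fold changes (points) with 95% intervals (lines) of the 5 genes tested in 4 pairwise comparisons and in the difference between the strains' CdCl2 responses, filled where the edgeR adjusted p is under 0.05. The intervals of *wA* and *yA* are narrow and those of *rodA* wide, from -3.67 to 0.87 for CdCl2 in TNJ92, and among the differences between the responses *ivoB* alone, at -1.61, is filled.

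Over the 5 genes tested, CdCl2 in THS30 gave 2 calls, *ivoB* higher and *yA* lower, while 43.9% of all genes tested were called in that comparison. In TNJ92 it gave 1 call, *yA* lower, against 56.5% of all genes. TNJ92 differed from THS30 in 3 genes when untreated, with *ivoB* higher and *wA* and *yA* lower, against 61.6% of all genes. With CdCl2 it differed in 3 genes, *wA*, *yA* and *ivoB*, all lower, against 55.6% of all genes. The difference between the responses was called for 1 gene, *ivoB*, against 26.7% of all genes. With both conditions averaged, *wA* and *yA* were lower in TNJ92, and 69.3% of all genes were called. With both strains averaged, *yA* was lower after CdCl2, and 60.7% of all genes were called. The median log2 fold change of the 5 genes was 0.20 in the CdCl2 response of THS30, -0.51 in that of TNJ92, -0.26 between untreated strains and -0.53 between treated ones, beside medians of all genes of 0.00, 0.00, 0.03 and 0.00. The comparisons share libraries and are not independent of each other.

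The partners of the pigment genes were looked at next. *ygA* (AN3624), a predicted copper transporter needed for conidial pigment, had 43.5, 56.1 and 57.7 CPM in untreated THS30 and 46.1, 45.7 and 46.4 CPM in CdCl2-treated THS30. It had 32.2, 31.1 and 37.5 CPM in untreated TNJ92 and 30.6, 30.5 and 27.03 CPM in CdCl2-treated TNJ92, so that every mutant library lay below every reference library, as for *wA*. It was lower in TNJ92 by -0.64 ± 0.11 on the log2 scale without treatment (edgeR adjusted p = 0.00011) and by -0.65 ± 0.11 with CdCl2 (adjusted p = 0.00013). Of the 5 genes of this list, *ygA*, *ivoC* (AN10573, a putative cytochrome P450 gene) and 3 genes that the study assigns to the cluster of *wA*, only *ygA* was called in either strain comparison, against 61.6% of all genes untreated and 55.6% with CdCl2. Without untreated TNJ92 replicate 1, 2 of the 5 were called between the untreated strains.

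AN8208, the direct neighbour of *wA* in the RefSeq annotation of assembly ASM1142v1, did not share the strain difference of *wA*. It had 40.4 to 43.0 CPM in untreated THS30 and 36.9 to 43.4 CPM in untreated TNJ92 (log2 fold change -0.09 ± 0.11, edgeR adjusted p = 0.48). CdCl2 raised it in THS30 to 51.3 to 64.6 CPM (0.52 ± 0.11, adjusted p = 0.0013) and in TNJ92 to 51.4 to 64.2 CPM (0.58 ± 0.11, adjusted p = 0.00029). AN12403, of the same cluster, was lower after CdCl2 in THS30 (-0.40 ± 0.11, edgeR adjusted p = 0.0062) and TNJ92 (-0.50 ± 0.11, adjusted p = 0.00064).

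Of 15 regulators of conidiation, CdCl2 raised 6 and lowered 1 in THS30, against 43.9% of all genes called, and 8 were called in TNJ92, each of them higher, against 56.5% of all genes. Both counts of calls were near the share over all genes and are no result about the regulators. The count in TNJ92 was 4 without untreated TNJ92 replicate 2 and 5 without CdCl2-treated TNJ92 replicate 3. The median log2 fold changes of the 15 were 0.21 and 0.20. *brlA*, the gene that starts conidiophore formation, had 2.73, 1.70 and 3.00 CPM in untreated THS30 and 6.17, 7.57 and 5.41 CPM in CdCl2-treated THS30. In TNJ92 it had 1.35, 1.49 and 2.70 CPM without and 5.57, 4.73 and 4.58 CPM with CdCl2, and in both strains all treated libraries were above all untreated ones. CdCl2 raised it by 1.38 ± 0.25 on the log2 scale in THS30 (edgeR adjusted p = 0.00032) and by 1.40 ± 0.26 in TNJ92 (adjusted p = 0.00019). *wA* and *yA*, which act later in development, were not called higher in either strain in the same libraries.

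Between the untreated strains *brlA* was called only without untreated TNJ92 replicate 3 (-0.78, edgeR adjusted p = 0.0386), among the libraries left out in turn.

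*abaA*, which acts after *brlA* in conidium-bearing cells, was not called in any pairwise comparison of all libraries. Without untreated THS30 replicate 1 it was called higher after CdCl2 in THS30 (0.82, edgeR adjusted p = 0.0429). It had 1.53 to 3.201 CPM in untreated THS30, 2.76 to 3.74 in CdCl2-treated THS30, 2.03 to 3.74 in untreated TNJ92 and 2.45 to 2.93 in CdCl2-treated TNJ92. *wetA*, needed for the maturation of conidia and their walls, was lower in the mutant. It had 7.23, 5.68 and 6.54 CPM in untreated THS30, 3.04, 4.42 and 8.65 CPM in CdCl2-treated THS30, 3.02, 2.01 and 1.80 CPM in untreated TNJ92 and 2.67, 2.14 and 2.102 CPM in CdCl2-treated TNJ92. All 6 mutant libraries were below all 6 reference libraries, and *wetA* was lower in TNJ92 by -1.495 ± 0.32 on the log2 scale without treatment (edgeR adjusted p = 0.00076) and by -1.21 ± 0.32 with CdCl2 (adjusted p = 0.0044). For CdCl2 in THS30 its log2 fold change was -0.27 ± 0.29 (edgeR adjusted p = 0.471), and without CdCl2-treated THS30 replicate 3, the highest of its group, *wetA* was called lower there (-0.84, adjusted p = 0.0088). *flbD* (AN0279), an early activator, rose with CdCl2 in the mutant, from 42.5 to 48.8 CPM untreated to 83.2 to 108 CPM treated (1.13 ± 0.13, edgeR adjusted p = 9.9e-07), while THS30 had 31.97 to 43.3 and 30.2 to 37.9 CPM (-0.19 ± 0.13, adjusted p = 0.27). Between the strains, 4 of the 15 regulators were higher and 3 lower in untreated TNJ92, against 61.6% of all genes called, and 7 were higher and 3 lower in CdCl2-treated TNJ92, against 55.6% of all genes.

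A list of *catA* and 2 genes given by ID, AN8333 and AN5015, was lower in the mutant, as *wA* and *yA* were. All 3 were called in both conditions, against 61.6% of all genes untreated and 55.6% with CdCl2. This list was chosen with earlier results of these data known, so its count of calls is no independent support. AN8333 was lower by -1.61 ± 0.14 on the log2 scale untreated and by -1.28 ± 0.13 with CdCl2, and AN5015, with 0 to 12 counts in a TNJ92 library against 45 to 189 in THS30, by -4.15 ± 0.59 and -4.56 ± 0.49 (edgeR adjusted p from 3.3e-08 to 6.3e-05). *catA* (AN8637), a conidia-specific catalase, had 24.4, 33.1 and 31.1 CPM in untreated THS30 and 12.5, 14.4 and 22.1 CPM in CdCl2-treated THS30. In TNJ92 its raw counts were 1, 0 and 4 without and 3, 7 and 8 with CdCl2, or 0 to 0.3003 and 0.223 to 0.601 CPM. Of the conidial markers summed above, *catA* was the one with a library at 0. The part of these markers in the lower *wA* and *yA* levels of TNJ92 was not tested.

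Of 4 further genes followed by ID alone, since the sources used here give no name for them, AN0940 had no read in any library. AN7539 was abundant, with 575 to 673 CPM in untreated THS30, 304 to 345 CPM in CdCl2-treated THS30, 5310 to 5905 CPM in untreated TNJ92 and 2234 to 2455 CPM in CdCl2-treated TNJ92. It was higher in TNJ92 by 3.21 ± 0.11 on the log2 scale untreated and by 2.85 ± 0.11 with CdCl2, and lower after CdCl2 by -0.90 ± 0.10 in THS30 and by -1.26 ± 0.10 in TNJ92 (edgeR adjusted p from 1.1e-13 to 3.7e-06). Its direction between the strains was thus the reverse of that of *wA* and *yA*, at a level far above theirs. AN6401 had 79.8 to 103 CPM in CdCl2-treated THS30 and 10.2 to 18.1 CPM in CdCl2-treated TNJ92 (-2.57 ± 0.56, edgeR adjusted p = 0.0043), whereas the untreated groups overlapped. AN1837, at 0.534 to 3.08 CPM over all libraries, was called lower after CdCl2 in TNJ92 (-1.19 ± 0.44, edgeR adjusted p = 0.031), with adjusted p values of 0.0037 to 0.36 over the alternatives. Without untreated TNJ92 replicate 3, which had 41 counts against 10 and 16 in replicates 1 and 2, the difference was -0.48 (edgeR adjusted p = 0.357). The call was also lost without CdCl2-treated TNJ92 replicate 2 (-0.98, adjusted p = 0.113) or 3 (-1.23, 0.0622), with library totals (-1.04, 0.0547) and with only the 2 groups fitted (-1.20, 0.0627).

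Some genes had the same order of cultures as *rodA* in untreated TNJ92, of which 3 were chosen here after their values were seen. In untreated TNJ92, where *rodA* had 22, 224 and 761 raw counts, AN6401 had 99, 274 and 573, *ivoC* 1, 12 and 37 and *ivoB* 85, 149 and 239 raw counts, so that replicate 1 had the fewest and replicate 3 the most of each. In untreated THS30, where replicate 3 had the most *rodA*, it also had the most AN6401 (48.1 CPM against 29.9 and 19.8 CPM), *ivoC* (1.18 against 0.356 and 0.254) and *ivoB* (7.90 against 7.71 and 5.51). The library with the most *rodA* in its group was also the one with the most *ivoB* in 4 of 4 groups, and the one with the most AN6401, *ivoC* and *ivoA* in 3 of 4. It was not particular to these genes, since AN5015 shared the library in 4 of 4 groups and the regulators *brlA*, *flbD* and *medA* in 3 of 4. For *yA* this was so in 2 of 4 groups and for *wA* in 1 of 4. These matches were counted on TMM-scaled CPM and moved with the scale. By RPKM, untreated THS30 had the most *ivoB* in replicate 1 (7.75 against 7.65 RPKM in replicate 3). CdCl2-treated TNJ92 had the most *rodA* in replicate 1 by RPKM (17.7892 against 17.7873 in replicate 3). On that scale *ivoB* did not share the library with *rodA* in either group. Over all 9069 other genes tested, 107 (1.18%) shared the highest library with *rodA* in every group. The share of all genes was not computed for 3 of 4 groups, so those matches are no result about the genes named. *wA* in untreated TNJ92 stayed within 4.82 to 5.18 CPM across the same 3 libraries.

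**Figure D4:**
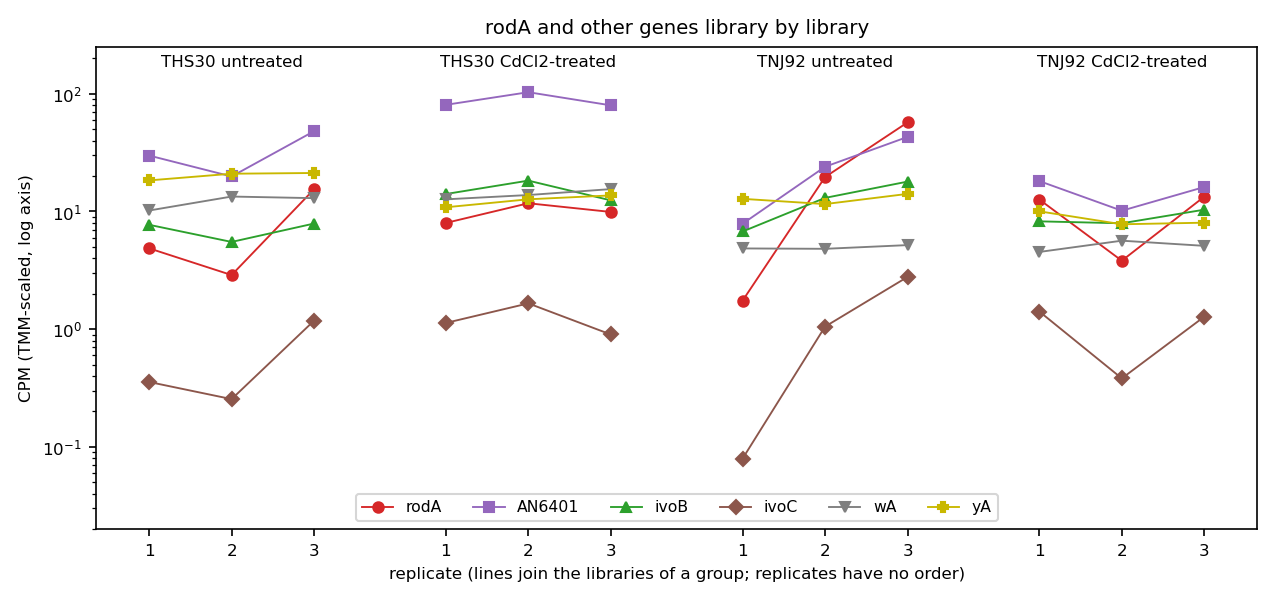
CPM (TMM-scaled, log axis) of *rodA*, AN6401, *ivoB*, *ivoC*, *wA* and *yA* in each library, with lines joining the libraries of a group only to guide the eye. In untreated TNJ92 *rodA*, AN6401, *ivoB* and *ivoC* are lowest in replicate 1 and highest in replicate 3, while *wA* stays at 4.82 to 5.18 CPM.

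The genes with the most similar patterns were sought by the correlation of log2 CPM over the 12 libraries among 9069 genes, as a description in which all values share the libraries and their depth. For *rodA* the nearest was *ivoC* (Pearson's r = 0.94, Spearman's rho = 0.80), followed by AN3858 (0.93, 0.95), a pseudogene in RefSeq, and *orsB* (AN7911; 0.87, 0.92), a putative amidohydrolase gene. For *wA* they were AN6560 (r = 0.99, rho = 0.95), the hyphal catalase gene *catB* (AN9339; 0.99, 0.90) and AN3679 (0.99, 0.85). *catB* had 2192 to 3064 CPM in THS30 and 524 to 697 CPM in TNJ92, so that this likeness lay mainly in the step between the strains. For *yA* they were AN8953 (r = 0.99, rho = 0.96), AN7661 (0.97, 0.92) and the chitin synthase gene AN7032 (0.97, 0.97), named *chsA* by the study and *chsB* by RefSeq. AN7032 had 72.9 to 80.9 CPM in untreated and 46.6 to 53.0 CPM in CdCl2-treated THS30, and 47.5 to 57.3 and 36.3 to 39.5 CPM in TNJ92. For *ivoB* the nearest genes were AN8153 (r = 0.91, rho = 0.82), AN10240 (0.88, 0.90) and AN2529 (0.85, 0.82). For *ivoA* no gene came closer than r = 0.79 (AN10293, rho = 0.76), and AN11973 (0.77, 0.76) and AN2705 (0.76, 0.76) followed. Some of these matches rest on few reads. AN8153 had 0.076 to 1.34 CPM, *ivoC* 0.080 to 2.78, *orsB* 0.159 to 3.38 and AN2705 0 to 3.51 CPM over the 12 libraries.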

How the data were processed

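Libraries of total RNA from lyophilized mycelia were made with the TruSeq kit, sequenced as single reads of 75 bases and mapped by the authors (HISAT2 2.1.0). For the read counting, program and strand setting were not given in the sources used here, so that overlapping and antisense transcripts cannot be told apart. The deposited table gives raw counts, the transcript length and RPKM values computed by the authors from those counts. 

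Counts were filtered with filterByExpr of edgeR 4.0.16 (minimum count of 10), scaled by TMM and fitted with the robust quasi-likelihood model over 4 groups with 12 libraries (R 4.3.3). P values were adjusted by Benjamini and Hochberg over 9070 genes for each of 7 comparisons. Each SE was obtained as the size of the fitted log2 change over the square root of F, and intervals are at 95%. CPM are TMM-scaled and RPKM as deposited. Correlations used log2 CPM with a prior count of 2. The scripts were tested on simulated data.

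The members and lists were chosen with earlier results of these data known. The 6 genes are given in every library, and of each list at most 3 genes that passed the test, with *brlA*, *abaA* and *wetA* in any case. For each tested gene the 3 most similar patterns were sought. Symbols came from RefSeq (ASM1142v1) and the study's tables, which name RefSeq's *pksP* *wA*, its *ctpA* *ygA* and its *act1* *actA*. Alternatives were RLE, library totals, no filter, DESeq2 1.42.0, a replicate block, only the compared groups and each library left out.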

Additional observations from a re-analysis of the deposited data

Results flagged for a closer look

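For 4 of the genes named above the CdCl2 responses of the strains differed by a test of the difference itself. That test called 26.7% of all genes, so the count of 4 is no result about the genes named. Of the 15 regulators of conidiation it called 3, *flbD*, *velB* (AN0363) and *nsdD* (AN3152), each with a positive difference. The difference, TNJ92 minus THS30 on the log2 scale, was -1.61 for *ivoB* (edgeR adjusted p = 0.0125), where treated libraries were above untreated ones in THS30 and within their range in TNJ92. It was 1.32 for *flbD* (edgeR adjusted p = 7.0e-05), 2.54 for *catA* (adjusted p = 0.0370, with at most 8 counts in a TNJ92 library) and -0.46 for AN1182 (adjusted p = 0.0153).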

How the results depend on the processing

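Of 615 alternative values for the 5 genes tested, 580 kept their direction and their side of the threshold, 11 lost a call, 4 gained one and 20 changed sign, and the cause was not tested. The calls of *wA* between the strains and of *yA* in 6 comparisons were kept under every alternative. With library totals, 2 of the genes were called in the mean CdCl2 response in place of 1. The call gained was *wA*, higher after CdCl2 (0.25, edgeR adjusted p = 0.0482). Leaving out 1 library gave 1 to 2 calls in the CdCl2 response of TNJ92 and 1 to 2 in the mean response. The *ivoB* call between treated strains was lost without the filter (-0.75, edgeR adjusted p = 0.0514) and that between untreated strains with only the 2 groups fitted (0.83, 0.0781). The conidiation regulators called for CdCl2 in TNJ92 went from 8 to 4 with only the 2 groups fitted and to 4 to 8 with 1 library left out.

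Each sign change was to a value that was not called. With 1 library left out, *rodA* ranged from -0.074 to 1.39 for CdCl2 in THS30, from -0.26 to 0.39 between treated strains and from -0.81 to 0.13 for the mean CdCl2 response. *ivoA* ranged from -0.13 to 0.62 for CdCl2 in THS30, from -0.67 to 0.16 between untreated and from -0.50 to 0.10 between treated strains, and from -0.35 to 0.47 for the difference between the responses. *ivoB* ranged from -0.13 to 0.20 for the mean strain difference and *wA* from -0.041 to 0.12 for CdCl2 in TNJ92. *wetA* ranged from -0.84, called without CdCl2-treated THS30 replicate 3 (edgeR adjusted p = 0.0088), to 0.0069 for CdCl2 in THS30 and from -0.14 to 0.27 in TNJ92. *abaA* ranged from -0.20 to 0.29 for CdCl2 in TNJ92 and from -0.036 to 0.57 between untreated strains. For CdCl2 in TNJ92, *wetA* had -0.0082 without the filter and *abaA* 0.12 with library totals.

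Same-numbered replicates did not all deviate together (r from -0.13 to 0.32), so the numbers were not taken as pairs. For replicate 3, r was 0.30 for CdCl2 in TNJ92, 0.32 between untreated and 0.30 between treated strains, and 0.10 for CdCl2 in THS30. For replicate 1, r was 0.18 for CdCl2 in THS30, 0.25 for CdCl2 in TNJ92, 0.27 between untreated and 0.11 between treated strains. For replicate 2, r ran from -0.13 to 0.089. An effect shared by same-numbered cultures was not tested. With a replicate block, no call of the 5 genes changed, *rodA* between treated strains was -0.058, and the difference between the responses of *ivoB* was -1.60.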
